A study of Mus musculus with 8 samples.

Results

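The genes described here are 42 transcription factor genes that set or mark neuronal lineages of the hypothalamus and neighbouring forebrain. They were chosen by symbol from a fixed list of names, and each of the 42 symbols matched 1 row of a table of 45706 genes. The study, on the mitochondrial fission factor gene Mff in AgRP neurons, used translating ribosome affinity purification, in which ribosomes that carry GFP-tagged RpL10a are captured with antibodies to GFP. The captured RNA is called IP below, and RNA from the same kind of homogenate before capture is called input. All 8 libraries (4 input, 4 IP) carry the genotype Mff fl/fl; AgRP-IRES-Cre tg/wt; RpL10a-GFP fl/wt, so that Cre expressed from the Agrp locus both deletes Mff and switches on the tagged ribosome. The mice were random-fed, aged 11 to 12 weeks and of both sexes, and tissue blocks holding the arcuate nucleus were pooled from 3 mice for each replicate. Libraries without the Mff deletion are not analysed here. The comparison is therefore IP against input within the knockout, and it does not measure an effect of Mff.

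Neurons of the hypothalamus arise from a small sheet of neuroepithelium that is divided during development by transcription factors. Homeobox genes of the Dlx, Lhx, Hmx, Meis and Onecut families, POU genes, Zic genes and nuclear factor I genes each mark part of this map, and many stay on in the adult neurons that descend from it. A factor can mark one nucleus, as Sim1 marks the paraventricular and Fezf1 the ventromedial nucleus, or be shared by many neurons, as Tcf4 is. AgRP neurons are GABAergic cells of the arcuate nucleus that drive feeding, and they are a small part of the cells in such a tissue block.

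Library totals ran from 39902127 to 74607637 estimated counts. Levels are given in CPM, a gene's counts as a share of the TMM-scaled library total, on the usual per-million scale. The capture can be seen in Agrp, which stood at 2.64 to 4.38 CPM in input and at 683 to 1083 CPM in IP. All 10 tested AgRP neuron markers were higher in IP, with a summed level of 92.9 to 102 CPM in input and 3591 to 5407 CPM in IP. Over all tested genes 24.5% were higher. The marker list was written with earlier results of these data known, so its count is a description and no independent check. Mff itself was at 124 ± 8.69 CPM in input and 68.4 ± 3.1 CPM in IP (SD, n = 4). Cells without Cre also add Mff RNA to input, and the values do not check the deletion.

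Most of the 42 factor genes were lower in the RNA captured with tagged ribosomes than in the tissue, and 3 were higher. In edgeR's quasi-likelihood test across 17000 genes, with Benjamini-Hochberg adjustment and a threshold of 0.05, 31 of the 42 were lower in IP, 3 were higher (Pou2f2, Zfhx3 and Satb1) and 8 did not pass. Over all tested genes 45.4% were called, 20.9% lower and 24.5% higher, that is 3545 and 4171 genes. With upper quartile factors, which moved the median log2 fold change of all tested genes to -0.15, the split over all genes was 4384 lower and 3342 higher, and that of the factor genes 32 lower and 2 higher. All 42 passed the filter on low counts. Their median log2 fold change (IP over input, negative where IP was lower) was -1.54, against -0.01 over all tested genes. For 29 of the 42 every IP library lay below every input library, and for 3 every IP library lay above, where 24.0% and 24.1% of all tested genes did so. In bulk RNA, fewer cells of a type and less RNA per cell cannot be told apart, so a lower share in IP is not a count of cells.

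**Figure D1:**
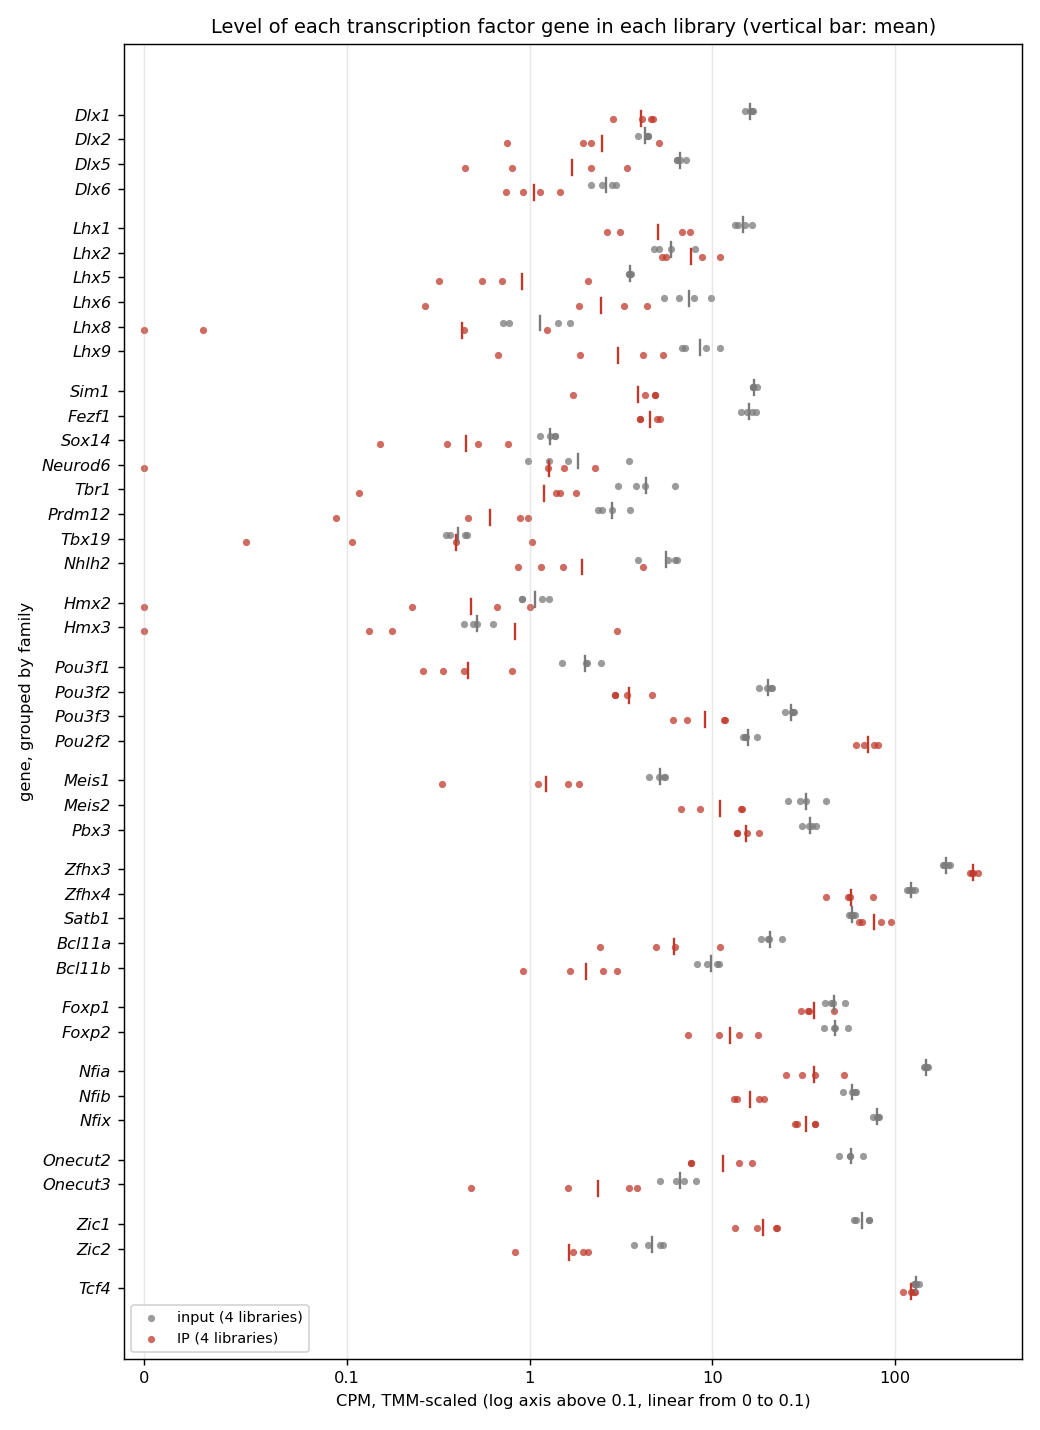
Level of each of the 42 factor genes in each library, in CPM on a log axis (linear below 0.1), with input in grey, IP in red and vertical bars at the means of 4 libraries. Pou2f2 is the gene with the widest gap in the upward direction, at 14.7 to 17.5 CPM in input and 61.4 to 80.8 CPM in IP, and most other genes have red points to the left of grey ones.

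**Figure D2:**
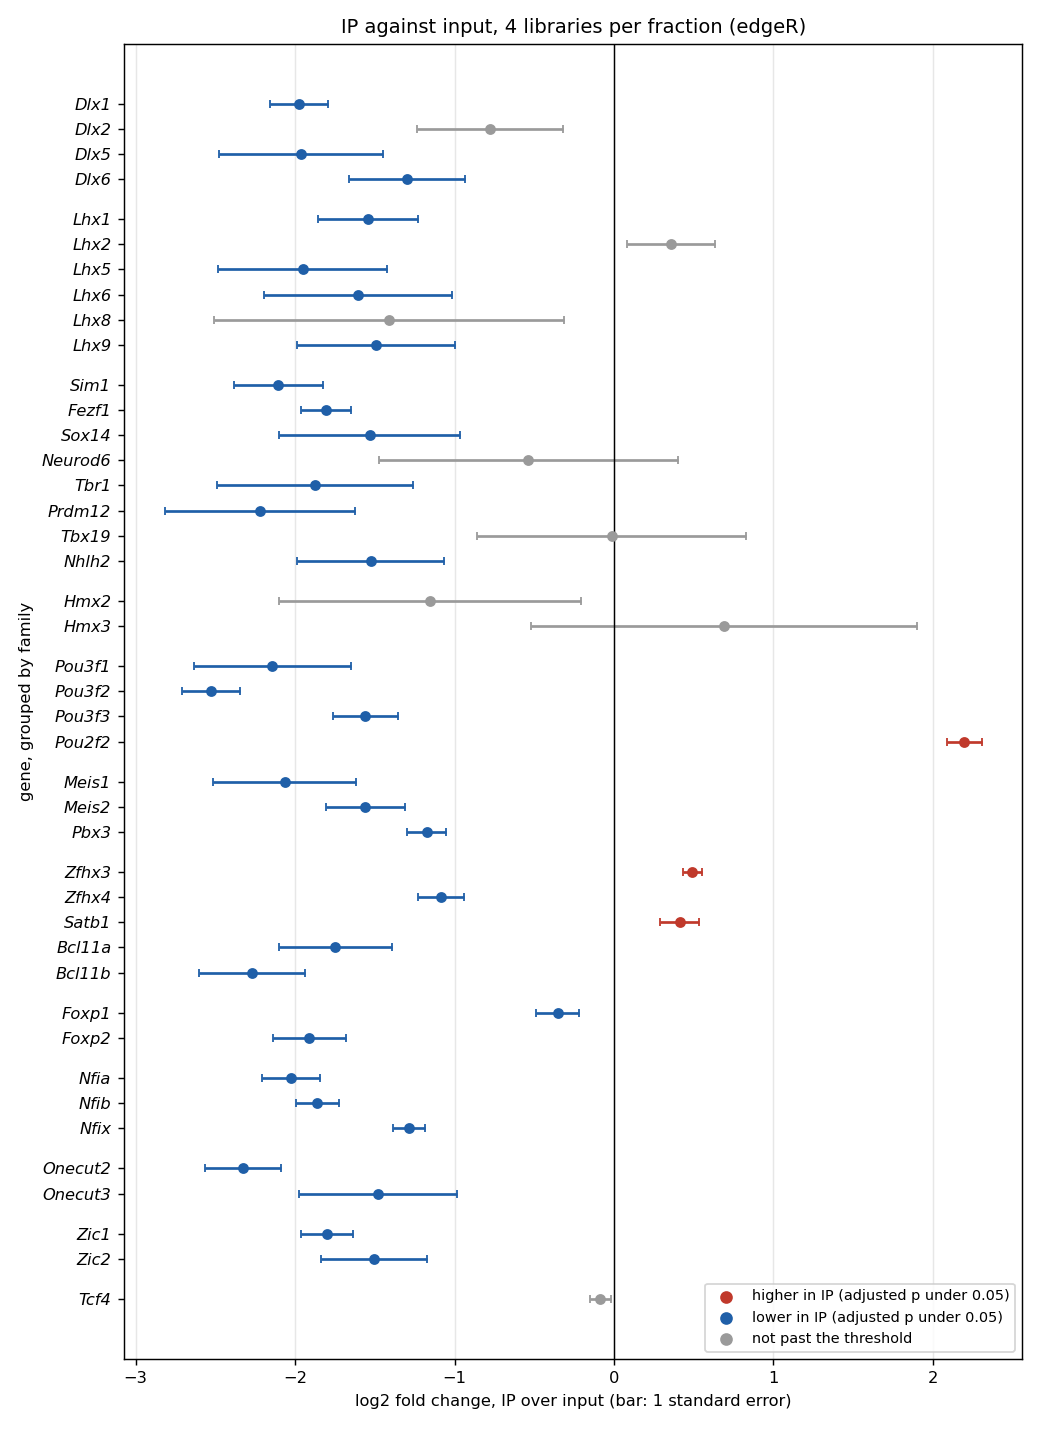
Log2 fold change of IP over input for each factor gene, with bars of 1 standard error from edgeR (4 libraries per fraction), coloured by whether the adjusted p was under 0.05. The values run from -2.53 for Pou3f2 to 2.20 for Pou2f2, with 31 genes lower, 3 higher and 8 not past the threshold.

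Pou2f2 (Oct-2), a POU factor first known from B lymphocytes, was the most enriched of the genes. Pou2f2 (ENSMUSG00000008496, chr7:25087344-25179726, GRCm38) was at 15.1, 15.3, 17.5 and 14.7 CPM in input replicates 1 to 4 and at 80.8, 76.4, 67.6 and 61.4 CPM in IP replicates 1 to 4. Every IP library was far above every input library. The ratio of means was 4.58 and the log2 fold change 2.20 ± 0.11 (SE, adjusted p = 6.25e-08), higher than that of 98.5% of all tested genes. Oct-2 is also found in immune cells. Of 11 tested markers of microglia, the immune cells of the brain, 9 were lower in IP and none higher. That is 81.8% lower, against 20.9% of all tested genes. Their summed level was 71.3 to 87.7 CPM in input and 26.1 to 31.7 CPM in IP. Their part in the Pou2f2 level was not tested.

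Zfhx3, known for its role in the suprachiasmatic nucleus, and Satb1, known from cortical interneurons, were higher in IP by smaller factors. Zfhx3 (Atbf1, a giant protein with zinc fingers and homeodomains, chr8:107942644-108961630) was at 183, 200.5, 185 and 196 CPM in input and 286, 264, 257 and 267 CPM in IP. The fractions were tight and did not overlap, with a log2 fold change of 0.49 ± 0.06 (adjusted p = 5.83e-05). The increase was 0.97 when GC content and transcript length were fitted. Satb1, which organises chromatin at AT-rich DNA (chr17:51736187-51833290), was at 55.9, 58.8, 60.2 and 57.2 CPM in input and 63.4, 83.8, 95.3 and 66.2 CPM in IP. The lowest IP library was only a little above the highest input library, and the log2 fold change was 0.41 ± 0.12 (adjusted p = 0.0167). Satb1 was not called with upper quartile factors (0.28, adjusted p = 0.0912) and stood at 0.68 with GC and length fitted.

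Promoter sequence was looked up for the genes higher in IP and for 1 lower gene, to show what lies at their starts. The 300 bases from 250 before to 50 after an annotated start are given 5′ to 3′ for Pou2f2, Zfhx3 and Satb1 and, for contrast, for Pou3f2, the gene with the largest fall (RefSeq, GRCm38.p6). Capitals mark matches to GGGCGG (the GC box) on either strand, the only one of the searched motifs found in these 4 promoters, in Pou2f2 (2 matches) and Pou3f2 (5 matches).
Pou2f2 (chr7:25132411-25132710, minus strand): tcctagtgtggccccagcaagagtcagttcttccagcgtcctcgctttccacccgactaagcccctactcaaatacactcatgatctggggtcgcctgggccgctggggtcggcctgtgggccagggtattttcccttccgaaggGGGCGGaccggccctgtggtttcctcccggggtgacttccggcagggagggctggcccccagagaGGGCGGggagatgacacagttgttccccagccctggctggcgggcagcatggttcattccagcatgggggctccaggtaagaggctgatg
Zfhx3 (chr8:108714394-108714693, plus strand): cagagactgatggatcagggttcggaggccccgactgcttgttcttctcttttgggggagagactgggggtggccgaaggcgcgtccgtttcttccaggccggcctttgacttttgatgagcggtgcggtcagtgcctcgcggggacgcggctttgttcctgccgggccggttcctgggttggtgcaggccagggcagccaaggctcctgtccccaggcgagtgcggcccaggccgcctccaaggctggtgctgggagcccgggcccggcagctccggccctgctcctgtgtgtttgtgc
Satb1 (chr17:51833241-51833540, minus strand): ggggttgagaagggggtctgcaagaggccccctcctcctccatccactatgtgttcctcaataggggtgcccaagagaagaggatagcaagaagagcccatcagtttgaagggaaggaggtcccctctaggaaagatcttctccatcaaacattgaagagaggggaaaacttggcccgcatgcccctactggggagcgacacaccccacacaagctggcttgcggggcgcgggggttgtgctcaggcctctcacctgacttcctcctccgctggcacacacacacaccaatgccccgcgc
Pou3f2 (chr4:22488317-22488616, minus strand): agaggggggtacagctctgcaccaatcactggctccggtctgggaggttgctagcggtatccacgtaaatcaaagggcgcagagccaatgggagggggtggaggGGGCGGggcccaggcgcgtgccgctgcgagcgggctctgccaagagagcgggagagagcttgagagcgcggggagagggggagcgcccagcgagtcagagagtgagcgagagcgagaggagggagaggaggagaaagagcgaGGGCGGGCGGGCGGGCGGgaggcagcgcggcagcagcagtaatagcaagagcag
For Satb1, which has 5 starts in the table, the most upstream is shown. The Pou2f2 and Zfhx3 starts lie inside the spans of their GENCODE genes, and those of Satb1 and Pou3f2 at the upstream ends of theirs. The promoters of Pou2f2, Zfhx3 and Satb1 had GC contents of 64%, 67.3% and 59%, and that of Pou3f2 67.7%. Both strands were searched for the octamer ATGCAAAT that POU factors bind, the homeodomain core TAATTA, the cAMP response element TGACGTCA, the TATA box TATAAA, the NFI palindrome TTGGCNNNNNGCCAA and GGGCGG, and no 2 kinds of motif overlapped in the promoters shown, while 4 of the 5 GGGCGG matches in Pou3f2 overlap each other. Of the 30 factor genes with a promoter in the table, 16 held GGGCGG (53.3%, against 35.9% of 27025 promoters), 3 held TAATTA (10.0%, against 5.32%), 4 held TATAAA (13.3%, against 14.2%) and none held ATGCAAAT, TGACGTCA or the NFI palindrome, found in 1.77%, 1.85% and 0.0407% of all. The median GC content of these 30 promoters was 59.7%, against 52.7% over all, and the shares of motifs were not adjusted for it. These matches are a description of letters, and those not found say nothing about binding elsewhere.

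Lhx2, Tcf4 and Foxp1 had the next highest IP levels relative to input among genes that averaged at least 5 CPM in a fraction. Tcf4 encodes an E protein, a broadly expressed partner of proneural factors, and was at 128, 135, 129.9 and 127 CPM in input and 123, 128, 129 and 110.5 CPM in IP. The fractions overlapped. Its log2 fold change was -0.09 ± 0.07 (adjusted p = 0.333), but the sign depended on the scaling, with a call as lower with upper quartile factors (-0.22, adjusted p = 0.0239) and as higher with GC and length fitted (0.38, adjusted p = 0.000454). Lhx2, a LIM homeobox gene with roles in the eye field, thalamus and tanycytes, was at 4.79, 8.06, 5.96 and 5.1 CPM in input and 5.31, 8.83, 5.6 and 11 CPM in IP. The ranges overlapped, and the value of 0.36 ± 0.27 did not pass (adjusted p = 0.318). Foxp1, a forkhead repressor, was at 41.7, 53.1, 45.6 and 44.6 CPM in input and 30.8, 34.1, 46.3 and 33.5 CPM in IP. One IP library reached the input range, and the log2 fold change of -0.35 ± 0.13 was just past the threshold (adjusted p = 0.0483). Foxp1 lost its call when input 1, 2, 3 or 4 or IP 1, 2 or 4 was left out (values from -0.39 to -0.27, adjusted p from 0.0599 to 0.161), and with library totals alone (-0.25, adjusted p = 0.195), ribosomal RNA and mitochondrial genes left out (-0.34, adjusted p = 0.0553), GC and length offsets (-0.05, adjusted p = 0.773) or GC and length offsets with replicate block (-0.06, adjusted p = 0.689). Tanycyte and ependymal markers summed to 55 to 58.5 CPM in input and 27.2 to 36.6 CPM in IP, with 6 of 10 lower and none higher. Over all tested genes 20.9% were lower and 24.5% higher. The part of these markers' cells in the Lhx2 level was not tested.

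The distal-less homeobox genes, which specify GABAergic neurons of the forebrain and regulate Gad genes there, were lower in IP in 3 of 4 cases. That is 75%, where 20.9% of all tested genes were lower. AgRP neurons are themselves GABAergic. Dlx1 and Dlx2 lie 9.4 kb apart on chromosome 2, and Dlx5 and Dlx6 9.2 kb apart on chromosome 6. Dlx1 (chr2:71528113-71533981) was at 15.1, 16.5, 16.8 and 16 CPM in input and 2.87, 4.14, 4.59 and 4.75 CPM in IP, with no overlap. Its log2 fold change was -1.98 ± 0.18 (adjusted p = 5.41e-06). Dlx5 went from 6.69 ± 0.354 to 1.7 ± 1.35 CPM (SD, n = 4; log2 fold change -1.96 ± 0.51, adjusted p = 0.00888 in edgeR). Dlx6 went from 2.62 ± 0.355 to 1.06 ± 0.309 CPM (-1.30 ± 0.36, adjusted p = 0.0125). Both genes had every IP library below every input library. The Dlx6 call ended when input 3 was left out (-1.23, adjusted p = 0.0504). Dlx2 did not pass (-0.78 ± 0.46, adjusted p = 0.195). In IP its libraries were scattered at 2.18, 1.97, 5.08 and 0.754 CPM around an input range of 3.9 to 4.47 CPM, and without IP replicate 3 it was called lower (-1.38, adjusted p = 0.00824).

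Among the LIM homeobox genes 4 of 6 were lower in IP, Lhx2 and Lhx8 did not pass, and none was higher. That is 66.7% lower, where 20.9% of all tested genes were lower and 24.5% higher. Lhx1, needed for the coupling of suprachiasmatic neurons, was at 13.8, 15.1, 16.6 and 13.2 CPM in input and 6.79, 7.58, 2.64 and 3.12 CPM in IP. All IP libraries were well below input (log2 fold change -1.54 ± 0.32, adjusted p = 0.00204). Lhx5, a relative of Lhx1 used in the mammillary region, stood at 3.48 to 3.6 CPM in input and 0.317 to 2.08 CPM in IP (-1.95 ± 0.53, adjusted p = 0.0109). Lhx6, a factor of interneurons born in the medial ganglionic eminence and of zona incerta neurons, was at 5.41 to 9.82 and 0.265 to 4.4 CPM (-1.61 ± 0.59, adjusted p = 0.044). Lhx9, a gene of thalamic neurons and orexin neurons, was at 6.81 to 11 and 0.672 to 5.38 CPM (-1.49 ± 0.50, adjusted p = 0.0296). Neither overlapped between fractions, yet both calls were near the threshold. Lhx6 lost its call when input 1, 2, 3 or 4 or IP 2 was left out (values from -1.73 to -1.44, adjusted p from 0.0592 to 0.115), and with library totals alone (-1.51, adjusted p = 0.0551) or GC and length offsets (-1.57, adjusted p = 0.0502). Lhx9 lost it when input 2 or 4 or IP 2 was left out (values from -1.44 to -1.32, adjusted p from 0.069 to 0.0841), and with GC and length offsets (-1.26, adjusted p = 0.0576). Lhx8, a factor of forebrain cholinergic neurons, was at 0.71, 1.66, 0.768 and 1.42 CPM in input and 1.24, 0.435, 0.0289 and 0 CPM in IP, a wide scatter with no call (-1.41 ± 1.10, adjusted p = 0.325). Its 0 in IP replicate 4 allows up to 0.0754 CPM (3 counts, counting error only).

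Of 8 factors that mark single nuclei or cell types, 6 were lower in IP and none was higher. That is 75% lower, where 20.9% of all tested genes were lower and 24.5% higher. Sim1, required for the paraventricular nucleus, was at 16.7, 16.7, 17.6 and 16.7 CPM in input and 1.72, 4.86, 4.86 and 4.3 CPM in IP. Fezf1, a factor of the ventromedial nucleus, was at 17.4, 15.5, 16.5 and 14.3 CPM in input and 5.01, 4.01, 5.15 and 4.02 CPM in IP. In neither gene did the fractions overlap, and the log2 fold changes were -2.10 ± 0.28 for Sim1 (adjusted p = 9.59e-05) and -1.81 ± 0.16 for Fezf1 (adjusted p = 3.63e-06). Prdm12, known from nociceptors and from POMC neurons, fell from 2.81 ± 0.538 to 0.602 ± 0.405 CPM (-2.22 ± 0.60, adjusted p = 0.0101). Nhlh2, a basic helix-loop-helix gene whose loss in mice leads to late-onset obesity, went from 5.57 ± 1.13 to 1.93 ± 1.53 CPM (-1.52 ± 0.46, adjusted p = 0.0189), with IP replicate 1 inside the input range at 4.19 CPM. The Nhlh2 call ended when input 1 or 3 or IP 4 was left out (values from -1.45 to -1.34, adjusted p from 0.0501 to 0.0559). Tbr1, a factor of glutamatergic cortical neurons, went from 4.36 ± 1.37 to 1.19 ± 0.739 CPM (-1.88 ± 0.62, adjusted p = 0.0278), a call that ended when input 2, 3 or 4 was left out (values from -1.92 to -1.64, adjusted p from 0.0529 to 0.0903). Sox14, a SoxB2 factor, went from 1.3 ± 0.112 to 0.445 ± 0.256 CPM (-1.53 ± 0.57, adjusted p = 0.0454). It lost its call when input 1, 2, 3 or 4 or IP 1 or 4 was left out (values from -1.58 to -1.25, adjusted p from 0.0531 to 0.112), and with library totals alone (-1.42, adjusted p = 0.0634), no filter on low counts (-1.54, adjusted p = 0.0736), replicate block (-1.71, adjusted p = 0.081) or GC and length offsets with replicate block (-1.86, adjusted p = 0.0635).

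Neurod6, Tbx19, Hmx2 and Hmx3 were low in both fractions, varied widely among IP libraries and gave no call. Neurod6, another cortical glutamatergic factor, was at 1.62, 3.48, 1.28 and 0.978 CPM in input and 0, 1.55, 2.26 and 1.26 CPM in IP. Input replicate 2 was the highest input library for Neurod6 and also for Tbr1 (6.26 CPM, against 3.04 to 4.28 CPM in the other 3). Tbx19 (Tpit), which drives Pomc in pituitary corticotrophs, was at 0.349 to 0.455 CPM in input and 0.0503 to 1.02 CPM in IP. Hmx2 and Hmx3, neighbours 3.8 kb apart on chromosome 7 that are required for GHRH neurons, were at 0.908 to 1.28 and 0.437 to 0.628 CPM in input. In IP, Hmx2 was at 0, 0.662, 1.01 and 0.226 CPM and Hmx3 at 0, 0.132, 3 and 0.176 CPM. The values at 0 in IP replicate 1 allow up to 0.0531 CPM, and a single library, IP replicate 3, held most of the Hmx3 counts in IP. The adjusted p-values in edgeR were 0.673, 0.991, 0.351 and 0.676. Their coefficients of variation in IP ran from 74.6% to 175%.

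The class III POU genes moved opposite to Pou2f2. They are neural factors that act together with Sox proteins, and Pou3f2 (Brn-2) is needed with Sim1 for oxytocin, vasopressin and CRH neurons. Pou3f2 was at 21.1, 18, 21.3 and 20.0 CPM in input and 2.92, 2.93, 3.42 and 4.68 CPM in IP, the largest fall of the 42 (-2.53 ± 0.18, adjusted p = 8.28e-07). Its mean IP level was 17.4% of its input level. Pou3f3 (Brn-1) was at 27.5, 28.2, 27.8 and 24.9 CPM in input and 7.25, 11.8, 11.5 and 6.08 CPM in IP (-1.56 ± 0.20, adjusted p = 8.48e-05). Pou3f1 (Oct-6), far less abundant, went from 2.02 ± 0.388 to 0.459 ± 0.241 CPM (-2.14 ± 0.49, adjusted p = 0.00411). In all 3 genes every IP library was below every input library.

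The TALE homeobox genes Meis1, Meis2 and Pbx3, whose products act as cofactors of other homeodomain proteins, were all lower in IP. Meis2 was at 30.3, 41.9, 26 and 32.7 CPM in input and 6.74, 14.4, 14.6 and 8.57 CPM in IP (-1.56 ± 0.25, adjusted p = 0.000375). Pbx3 was at 31, 37.1, 35.4 and 34.1 CPM in input and 15.6, 13.7, 18 and 13.6 CPM in IP (-1.18 ± 0.12, adjusted p = 1.25e-05). Pbx3 kept 44.2% of its input level and Meis2 33.9%. Meis1 went from 5.15 ± 0.458 to 1.23 ± 0.677 CPM (-2.07 ± 0.45, adjusted p = 0.00296).

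Zfhx4 and the Bcl11 genes were lower, unlike Zfhx3 and Satb1 of the same group of zinc finger and AT-rich DNA binding factors. Zfhx4 was at 119, 129, 125 and 117 CPM in input and 55.6, 56.5, 76.1 and 41.9 CPM in IP (-1.09 ± 0.14, adjusted p = 9.58e-05). With GC content and length fitted its fall was smaller (-0.60) but still called. Bcl11a (Ctip1), a repressor with roles in cortical and spinal neurons, was at 18.4, 24.2, 20.3 and 20.2 CPM in input and 2.44, 6.22, 11.1 and 4.93 CPM in IP. Bcl11a varied over a wide range within IP, yet its highest IP library was below its lowest input library (-1.75 ± 0.35, adjusted p = 0.00185). Bcl11b (Ctip2), a marker of striatal and subcerebral projection neurons, went from 9.78 ± 1.2 to 2.03 ± 0.928 CPM (-2.27 ± 0.33, adjusted p = 0.000187).

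Foxp2, the nuclear factor I genes, the Onecut genes and the Zic genes were all lower in IP with no overlap of fractions. Foxp2, the paralogue of Foxp1, was at 46.4, 55.1, 46.9 and 40.8 CPM in input and 10.9, 14, 17.8 and 7.34 CPM in IP (-1.91 ± 0.23, adjusted p = 3.99e-05). Nfia, a factor of gliogenesis and of later-born neurons, was at 145, 149.8, 151 and 146 CPM in input and 25.3, 36.5, 52.5 and 30.9 CPM in IP (-2.03 ± 0.18, adjusted p = 4.67e-06). Among the 42 it had the highest length-scaled level in input. Nfib was at 61.4, 60.7, 58.4 and 52.3 CPM in input and 13.6, 17.9, 19.3 and 13.1 CPM in IP (-1.86 ± 0.14, adjusted p = 8.95e-07). Nfix was at 76, 79.6, 80.8 and 81.5 CPM in input and 29, 36.4, 36.6 and 28.2 CPM in IP (-1.29 ± 0.10, adjusted p = 1.8e-06). Astrocytes also express nuclear factor I genes. All 12 tested astrocyte markers were lower in IP, where 20.9% of all tested genes were. Their summed level was 2769 to 3455 CPM in input and 829 to 1125 CPM in IP. The part of astrocytes in the fall of these 3 genes was not tested.

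Onecut2, a cut homeobox gene, was at 57.1, 57, 67.1 and 49.7 CPM in input and 14, 7.68, 16.4 and 7.67 CPM in IP, at 19.8% of its input level (-2.33 ± 0.24, adjusted p = 1.37e-05). Onecut3 went from 6.67 ± 1.25 to 2.37 ± 1.6 CPM (-1.48 ± 0.50, adjusted p = 0.0305), a call that ended when input 1, 3 or 4 or IP 2 was left out (values from -1.49 to -1.33, adjusted p from 0.0642 to 0.0862). Zic1, a zinc finger gene of the dorsal midline, septum and thalamus, was at 59.4, 71.9, 61.3 and 72 CPM in input and 13.3, 22.7, 22.3 and 17.5 CPM in IP (-1.80 ± 0.16, adjusted p = 4.75e-06). Zic2 went from 4.68 ± 0.738 to 1.65 ± 0.562 CPM (-1.50 ± 0.33, adjusted p = 0.0032). The IP level was 28.7% of input for Zic1 and 35.2% for Zic2.

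Per length of transcript, the order of the genes differed between the fractions. The level in CPM per kb of the longest coding transcript allows genes to be compared with each other. In input the leading genes were Nfia at 15.6 ± 0.293, Tcf4 at 15.2 ± 0.429, Nfix at 14.5 ± 0.447, Pbx3 at 12.6 ± 0.944, Zic1 at 11.8 ± 1.2 and Zfhx3 at 11.1 ± 0.492 CPM per kb (SD, n = 4). Neighbours such as Nfia and Tcf4, or Zic1 and Zfhx3, did not differ beyond their spread. In IP, Zfhx3 came first at 15.7 ± 0.709 CPM per kb. Tcf4 followed at 14.3 ± 1, Satb1 at 12.4 ± 2.41 and Pou2f2 at 10.1 ± 1.23 CPM per kb. Zfhx3 and Tcf4 overlapped within 1 SD, and Satb1 overlapped both Tcf4 and Pou2f2. A gap separated these 4 from Nfix at 5.95 ± 0.837, Pbx3 at 5.56 ± 0.757 and Foxp1 at 5.04 ± 0.964 CPM per kb, which did not differ beyond their spread. By mean level, Pou2f2 went from place 22 of the 42 in input to place 4 in IP, and Zfhx3 from place 6 to place 1. Zfhx3 alone made up 14.6% ± 0.513 of the summed CPM of the 42 genes in input and 31.5% ± 3.74 in IP, and Pou2f2 1.2% ± 0.0974 and 8.37% ± 1.15 (SD, n = 4).

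**Figure D3:**
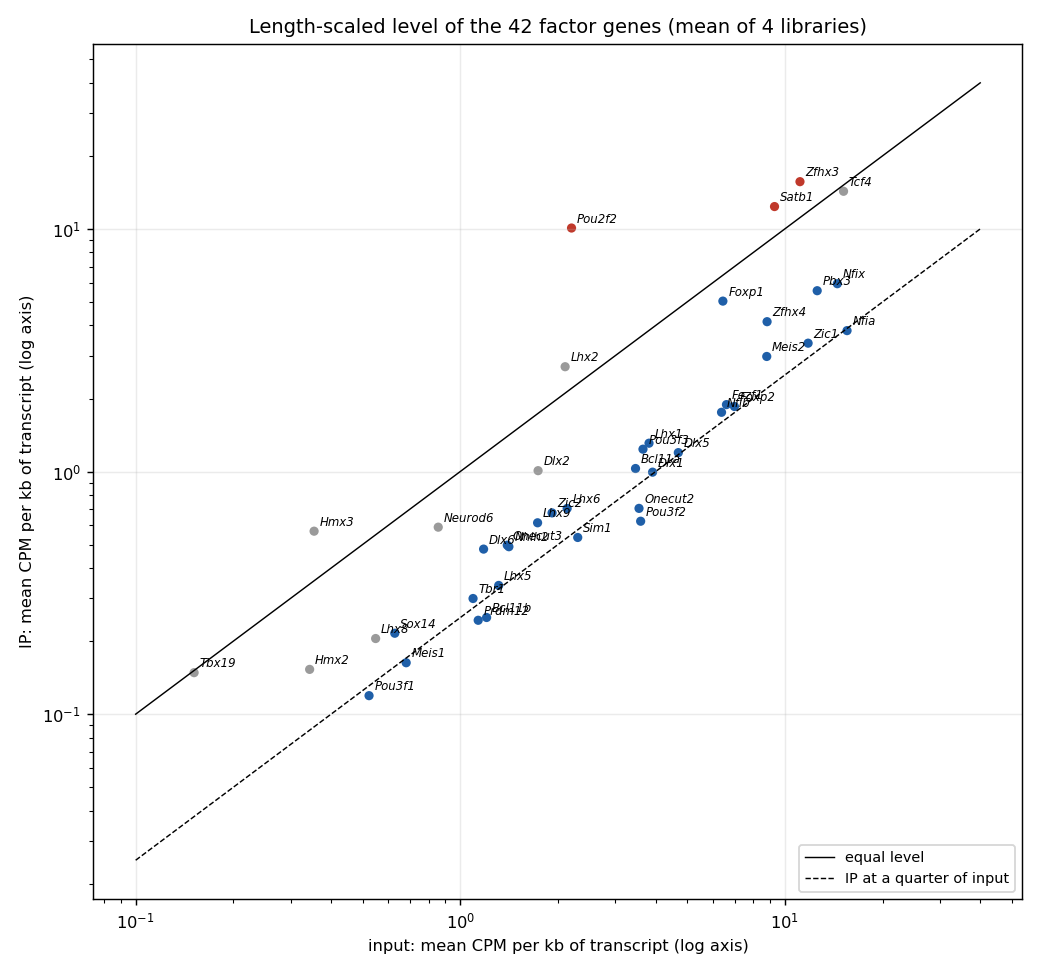
Mean level of the 42 factor genes in CPM per kb of transcript, input on the horizontal and IP on the vertical log axis (4 libraries each), with red for higher, blue for lower and grey for not past the threshold. The solid line marks equal levels. Pou2f2, Zfhx3 and Satb1 lie above it, as do Lhx2 and Hmx3 in grey, and Tcf4 lies just below it. All blue points lie below it, many near the dashed line drawn parallel to it.

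The 31 lower genes kept between 17.4% (Pou3f2) and 78.2% (Foxp1) of their input level in IP, with a median of 28.7%. Glial cells should carry no tagged ribosomes, and their markers were measured the same way. Over 24 astrocyte and oligodendrocyte markers the IP level was 17.8% to 91.3% of input, with a median of 31.5%, and 30 of the 31 lower genes lay within that range, Pou3f2 being the exception. The upper end is that of Gjb1 alone, which was not called and varied from 1.89 to 12.1 CPM in IP. The next highest marker, Gfap, was at 50.3%, below Foxp1. List medians of the log2 fold change were -1.71 for astrocytes, -1.64 for oligodendrocytes, -1.99 for neurons of other hypothalamic nuclei (12 of 12 lower), -1.39 for other arcuate neurons (9 of 12 lower) and -1.25 for pallial, striatal and thalamic neurons (7 of 12 lower, 1 higher). They were -1.89 for oligodendrocyte precursors (8 of 8 lower), -1.26 for vascular cells (5 of 14 lower), -1.77 for pituitary cells (3 of 5 lower) and -1.40 for tanycytes and ependymal cells. Over all tested genes 20.9% were lower and 24.5% higher. Vascular markers, at 35.7% lower with 9 not called, came nearest to the share of lower genes. Sim1, Fezf1, Prdm12, Tbx19, Neurod6 and Tbr1 are themselves among the neuronal markers. No astrocyte or oligodendrocyte marker was at 0 in any IP library, and how much such RNA adds to the IP level of each factor gene was not tested.

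**Figure D4:**
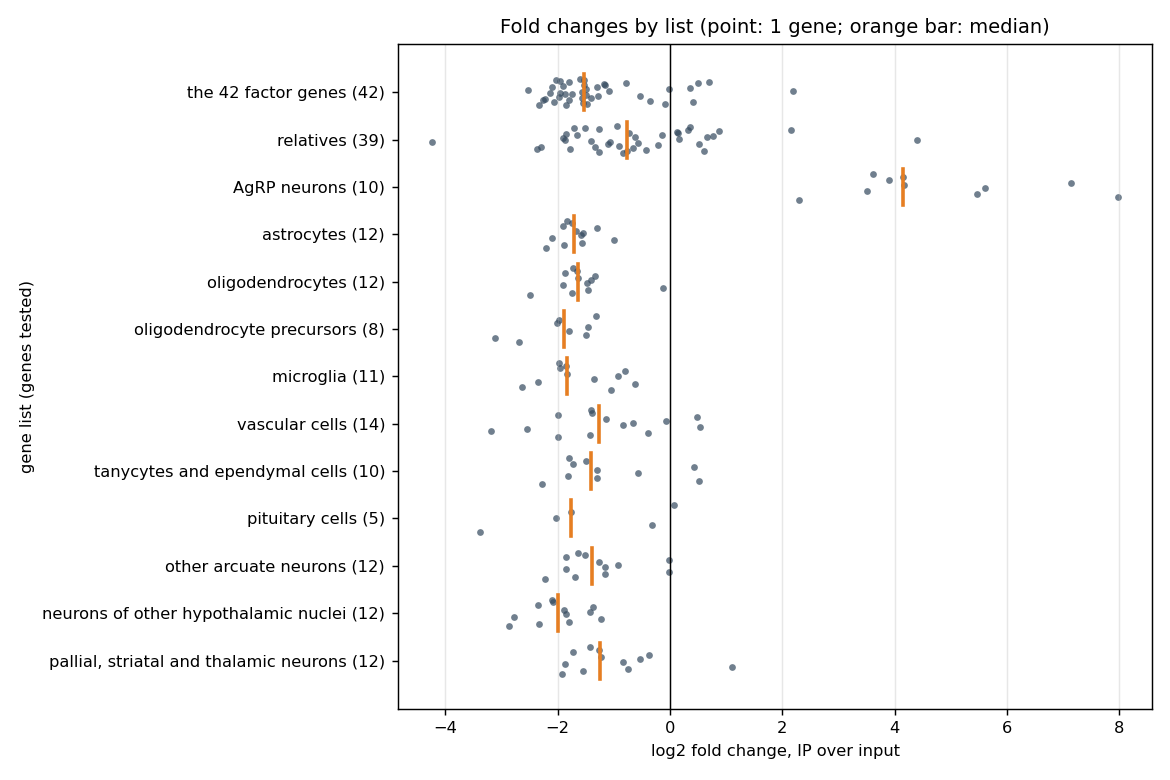
Log2 fold change of IP over input for every tested gene of each list, with orange bars at the list medians and the number of genes tested in brackets. The factor genes centre on -1.54, beside -1.71 for astrocyte and 4.16 for AgRP neuron markers.

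The factor genes varied more among IP libraries than among input libraries. The median coefficient of variation over 4 libraries was 10.3% in input and 38.6% in IP. For the 21 genes that averaged 10 CPM or more in either fraction it was 7.5% and 23.6%, and for the 21 below that level 17.6% and 70.5%. IP libraries also correlated less with each other over all tested genes. Mean correlations of log2 CPM within a fraction were 0.926 to 0.938 in IP and 0.987 to 0.988 in input. Of the 31 lower genes, 16 had their highest IP value in replicate 3, 7 in replicate 2, and 4 each in replicates 1 and 4. The nuclear factor I genes together were at 67.9, 90.8, 108 and 72.3 CPM in IP replicates 1 to 4. Astrocyte markers were highest in replicate 3, at 829, 904, 1125 and 842 CPM. AgRP neuron markers were lowest there, at 4211, 4147, 3591 and 5407 CPM. Oligodendrocyte, oligodendrocyte precursor, vascular and pituitary markers also summed highest in replicate 3. So did the markers of other hypothalamic nuclei and of pallial, striatal and thalamic neurons. The pituitary sum in replicate 3, 12.6 CPM, was mostly Tshb, at 9.29 CPM there and 0.416 to 2.53 CPM in the other IP libraries. Most of the vascular sum in replicate 3, 34.1 CPM, came from Rgs5 (19.4 CPM) and Flt1 (7.39 CPM). Markers of microglia, of tanycytes and ependymal cells, and of other arcuate neurons summed highest in replicate 4. The cause of these differences was not tested. Without IP replicate 3, 32 of the factor genes were called lower and 3 higher. Over all tested genes 4230 were then lower and 4508 higher, against 3545 and 4171 with all 8 libraries.

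Ratios between paralogues are given as a description, since the pairs were taken after the values were known. For 19 pairs the log2 ratio of the 2 genes was formed within each library, which removes the library scaling. In 8 pairs the IP and input libraries did not overlap. In an exact permutation test over libraries, 0 of the 19 pairs had a Benjamini-Hochberg adjusted p under 0.05. With 70 arrangements of the libraries the exact p cannot go below 0.0286, and no conclusion is drawn from it. The ratio of Pou2f2 to its broadly expressed paralogue Pou2f1 had the largest difference, with -1.68 ± 0.05 for input and 1.12 ± 0.45 for IP (SD, n = 4 libraries; difference 2.80 ± 0.23, SE). Zfhx3 over Zfhx4 went from 0.64 ± 0.07 to 2.25 ± 0.38. Foxp1 over Foxp2 went from -0.03 ± 0.12, near equal counts, to 1.58 ± 0.41. The ratios of Nfix to Nfia (difference 0.78 ± 0.15) and to Nfib (0.58 ± 0.08) were above those of input in every IP library. The ratios of Meis3 to Meis2 (difference 2.48 ± 0.33), Lhx2 to Lhx9 (2.15 ± 0.63) and Tcf4 to Tcf12 (0.84 ± 0.09) were the other 3 without overlap. The neighbouring Dlx and Hmx pairs, Bcl11a with Bcl11b and Zic2 with Zic1 overlapped between fractions.

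**Figure D5:**
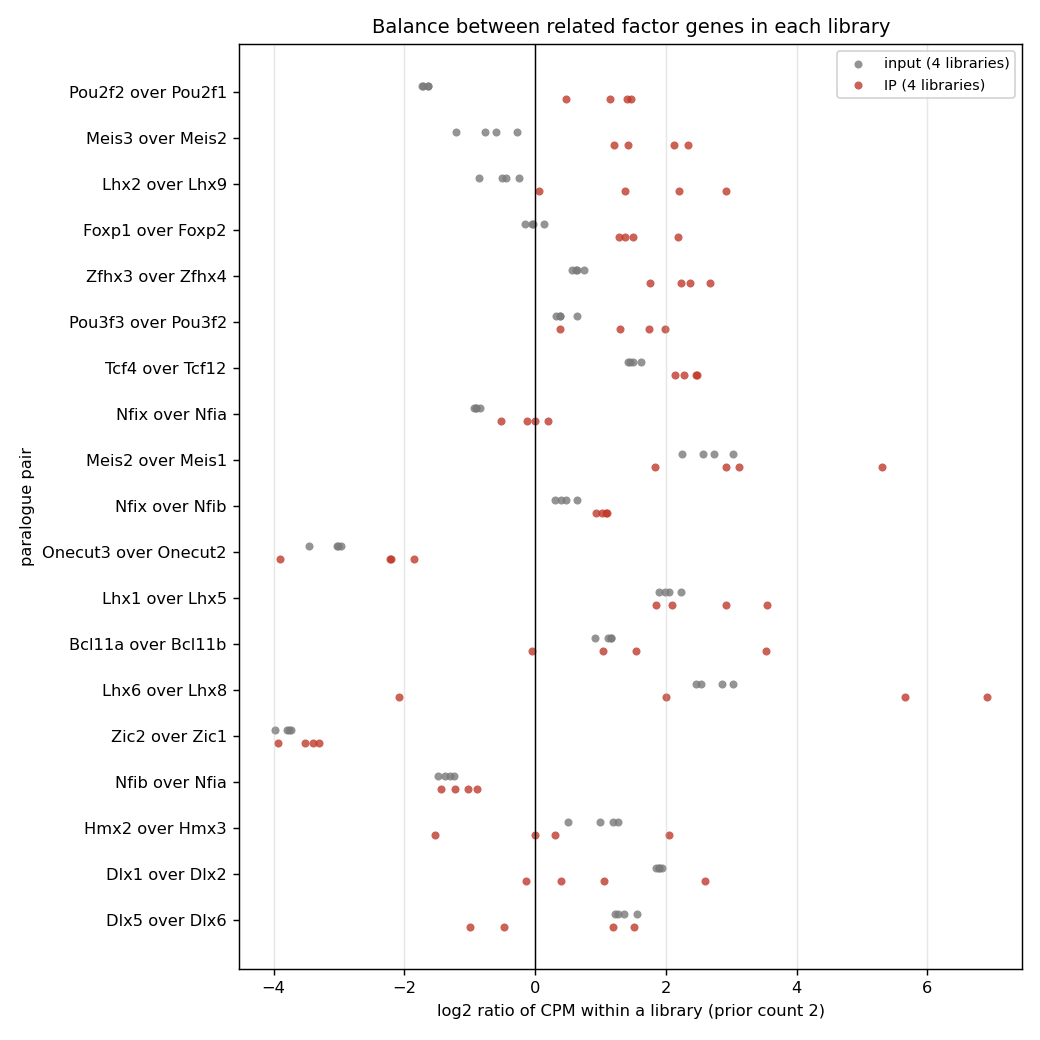
Log2 ratio of CPM of the first over the second gene of 19 paralogue pairs in each library (input grey, IP red), sorted by the difference between fractions. The red points of Pou2f2 over Pou2f1 lie at 0.47 to 1.46 and the grey ones at -1.73 to -1.63, and 8 pairs show no overlap.

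Other genes of the same families and their partners form a list of 50, of which 39 passed the filter on low counts. In IP 20 of the 39 were lower (51.3%, against 20.9% of all tested genes), 8 were higher (20.5%, against 24.5%) and 11 did not pass. Their median log2 fold change was -0.76, against -0.01 over all tested genes. Tbx3 and Isl1 stood far above the other higher genes. Tbx3, a T-box repressor needed for arcuate neuron identity, was at 7.21, 6.88, 7.5 and 6.77 CPM in input and 172, 142, 135 and 152 CPM in IP (4.41 ± 0.10, adjusted p = 2.86e-10). Isl1, a LIM homeobox gene of arcuate neurons, was at 11.7, 9.16, 12.3 and 9.24 CPM in input and 48.6, 40.5, 44.8 and 53.9 CPM in IP (2.15 ± 0.14, adjusted p = 3.59e-07), whereas 4 of the 6 Lhx genes were lower. Meis3 was higher (0.87 ± 0.10, adjusted p = 2.42e-05) where Meis1 and Meis2 were lower, and Foxp4 was higher (0.66 ± 0.11, adjusted p = 0.000565) where Foxp2 was lower. Pbx4 (0.77 ± 0.21) and Zfhx2 (0.35 ± 0.07) were higher as well. The Pbx4 call ended with GC and length offsets (0.48, adjusted p = 0.0961) or GC and length offsets with replicate block (0.46, adjusted p = 0.165). Sim2, the paralogue of Sim1, was the most depleted, at 1.14 to 1.87 CPM in input and 0 to 0.227 CPM in IP. The third Onecut gene, Onecut1, was lower (-2.37 ± 0.84, adjusted p = 0.0385), a call that ended when input 1, 2, 3 or 4 or IP 2 or 3 was left out (values from -2.41 to -2.28, adjusted p from 0.0533 to 0.089), and with GC and length offsets (-2.23, adjusted p = 0.0507). Also lower were Zic4 (-1.91 ± 0.42) and Zic5 (-1.78 ± 0.40).

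Gene structure bears on how firmly these counts belong to each gene. Of the 42 genes, 11 share exon bases with a gene on the opposite strand and 5 with one on the same strand in GENCODE release M21, and the strandedness of the counting is not given in the sources used. The part shared with any 1 overlapping gene was at most 9.77% of a gene's exon bases (Meis1 with Gm37818). Meis1 also shares 8.51% with Gm16140, and the overlaps of a gene were not combined. Of the overlapping genes the most abundant were E130114P18Rik, which shares 4 bases with Nfia, and Zic4, which shares 60 bases with Zic1. Across the 42 genes the log2 fold change had a Pearson correlation of -0.0142 with log2 transcript length and 0.167 with GC content, against -0.177 and 0.154 across all tested genes (genes are not independent replicates). The median length was 4044 bases, against 2993 bases over all tested genes. In their promoters, 17 of 30 factor genes had a CpG content above 0.6 of that expected from base composition (56.7%), against 36.5% of all promoters in the table.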

How the data were processed

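Ribosome-bound (IP) and input RNA of 8 libraries was sequenced, grouped and numbered by title. The authors deposited estimated counts per gene without normalization. Salmon 0.14.1 and GRCm38.p6 are named in the submitters' processing notes. Trimming, strandedness and the annotation's release are not given in the sources used. Salmon divides reads that fit several genes by a model, so close paralogues are less certain. Between 15.3% and 19.2% of values per library were not whole (tolerance 1e-06).

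Estimated counts were rounded and tested with edgeR 4.0.16 (R 4.3.3): filterByExpr (minimum count 10), TMM factors, quasi-likelihood test of IP against input without covariate, Benjamini-Hochberg adjustment over 17000 genes, threshold 0.05. SE was taken as |log2 fold change|/sqrt(F). CPM are TMM-scaled, and lengths, GC content and coordinates come from GENCODE M21 (GRCm38, 98.8% of identifiers found). Pair ratios used log2 CPM with a prior count of 2. All factor genes may be named; full values are given for called genes that average 10 CPM or more in a fraction. Members, lists and pairs were chosen with earlier results of these data known, and a few related genes are not reported here and were left out of lists and pairs. Alternatives were other scalings and filters, DESeq2 1.42.0, limma-voom (limma 3.58.1), a replicate block, offsets for GC and length (loess, span 0.3), exclusion of ribosomal RNA and mitochondrial genes, and leaving out each library. The fits were tested on simulated data, where DESeq2 exceeded the set false discovery rate by the most, so it serves only as an alternative. The simulation changed a far smaller share of genes than the 45.4% called here, so its false shares need not hold for these data. Replicates differed by more than sampling noise (chi-square per degree of freedom at least 18.5).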

Additional observations from a re-analysis of the deposited data

Results flagged for a closer look

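Each factor gene was checked within each fraction for 1 library that stood apart from the other 3, and 3 of 84 groups of 4 libraries passed; chance passes about 5% of groups. Hmx3 was at 3 CPM in IP replicate 3 and at 0 to 0.176 CPM in the other 3 IP libraries. Sim1 was at 17.6 CPM in input replicate 3, against 16.7 CPM in the others. Dlx2 was at 3.9 CPM in input replicate 1, against 4.4 to 4.47 CPM in the others.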

How the results depend on the processing

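The 19 alternatives to the fit left 25 of the 34 called factor genes with the same call throughout. The other 9 (Dlx6, Lhx6, Lhx9, Sox14, Tbr1, Nhlh2, Satb1, Foxp1 and Onecut3) lost theirs under at least 1, and of the 8 not called, Dlx2, Lhx8 and Tcf4 passed under at least 1 (Lhx8 in limma-voom, -3.07, adjusted p = 0.0379). The number lower ran from 24 without input replicate 3 to 32, and the number higher from 2 to 4. Leaving out another input library gave 25 or 26 lower. Over all tested genes the number lower ran from 2862 to 4606 and the number higher from 3342 to 4820. Without input replicate 3 it was 2910 lower, against 3545 in the main fit. The median log2 fold change of the factor genes, -1.54, became -1.81 in limma-voom, -1.79 with the replicate block, and ran from -1.70 (without IP replicate 3) to -1.43 when single libraries were left out. Tcf4 changed sign with GC and length fitted, to 0.38 (adjusted p = 0.000454), and to 0.38 with the replicate block as well.

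The replicate numbers were not used as pairing in the main fit. Same-number correlations of deviations from the fraction means were 0.048 to 0.084, and the highest correlation of unlike numbers was -0.0016. Each of the 4 IP libraries thus correlated best with the input library of its own number. With the replicate block, 30 factor genes were lower and 3 higher, among 3878 genes higher and 3714 lower over the table. Below 10 CPM the scatter among IP libraries (median coefficient of variation 70.5%) limits the precision. Whether IP and input of one number share a pool of mice is not given in the labels, and the cause of these changes was not tested.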

Other observations

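The list of related genes also held partners that work by binding other factors. The Id genes encode helix-loop-helix proteins that lack a DNA binding region and inhibit E proteins such as the product of Tcf4. Id2, Id3 and Id4 were lower in IP, and Id1 did not pass (log2 fold change -0.76 ± 0.65, adjusted p = 0.374 in edgeR). Id2 was at 45, 43.6, 42.9 and 38.6 CPM in input and 10.4, 11, 20.1 and 10.5 CPM in IP (-1.71 ± 0.20, adjusted p = 4.01e-05), with no overlap. Id4 was at 28.4, 33.3, 28.2 and 32.4 CPM in input and 11.3, 14.9, 19.4 and 12.5 CPM in IP (-1.07 ± 0.16, adjusted p = 0.000268). Of the E protein genes, Tcf12 was lower (-0.92 ± 0.11, adjusted p = 4.78e-05), and Tcf3 did not pass (0.12 ± 0.21, adjusted p = 0.682).

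LIM domain binding proteins link LIM homeodomain factors into complexes. Ldb1 was at 31.1, 34.5, 34.9 and 34.4 CPM in input and 51, 57.3, 47.3 and 49.9 CPM in IP, higher with no overlap (0.61 ± 0.09, adjusted p = 0.000171). Ldb2 was higher by 0.51 ± 0.17 (adjusted p = 0.0305), a call that ended when input 1, 2, 3 or 4 was left out (values from 0.47 to 0.55, adjusted p from 0.0512 to 0.0824), and with upper quartile factors (0.38, adjusted p = 0.0972). The LIM-only genes Lmo1, Lmo2 and Lmo4, whose products compete for the same partners, were lower (-1.51, -1.33 and -0.66), and Lmo3 did not pass (-0.14 ± 0.13, adjusted p = 0.41). The Lmo2 call ended when input 1, 2, 3 or 4 or IP 1 was left out (values from -1.42 to -1.12, adjusted p from 0.0503 to 0.0942), and with library totals alone (-1.21, adjusted p = 0.0549). Arnt2, the partner of Sim1, was lower (-0.72 ± 0.09, adjusted p = 6.32e-05).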
